A study of Mus musculus with 42 samples.

Results

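The mouse mitochondrial genome is transcribed into 37 annotated genes whose symbols start with mt-, and all 37 were present among the 56691 genes of the deposited tables. They are 13 messenger RNAs (mRNAs) for respiratory chain proteins, 2 ribosomal RNAs (rRNAs) and 22 transfer RNAs (tRNAs). The members were chosen by symbol alone, with no measured value used. The kidneys came from wild-type (WT) male C57BL/6 mice, 6 weeks old at the start. For 14 weeks they were given standard chow or a high-fat diet that held 3% EpSA, which is taken here to be epoxystearic acid, a fatty acid oxidation product found in heated oils. The light cycle was 12 h light and 12 h dark for all. Sampling was at zeitgeber time (ZT), counted in hours from lights on, of 1, 5, 9, 13, 17, 21 and 25, and 3 mice are listed for each diet at each time, which makes 42 libraries. The series asks how time of day and this diet relate in the kidney. Each deposited column is a mean over the 3 mice of a diet and time, called a pool below. The comparison therefore rests on 7 chow and 7 EpSA pools, and no spread between mice can be given. The series also names a high-fat diet lacking EpSA. It was not analysed here, and the fat and the EpSA of the second diet cannot be told apart.

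Mitochondrial DNA is a small circle with a gene-rich layout. Each of its strands is copied as a long precursor RNA, from which the mRNAs and rRNAs are released largely by cutting out the tRNAs that lie between them. The mRNAs encode subunits of complexes I, III, IV and V of oxidative phosphorylation, whose other subunits come from nuclear genes, and the rRNAs and tRNAs serve the mitochondrion's own ribosomes. Proximal tubule cells, which form much of the kidney cortex, are rich in mitochondria because they reabsorb solutes at high energy cost.

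The pools looked like kidney. Levels are in FPKM (fragments per kilobase of transcript, scaled to the fragments of the library), a unit read from the values because the headers do not name it. All 10 proximal tubule markers were detected, and the 9 other than Kap summed to 1773 to 2015 FPKM in the chow pools and 1834 to 2056 in the EpSA pools. Total FPKM lay between 400590 and 435621, while sequencing depth is unknown. The chow ZT 21 pool stood apart: Kap, an androgen-regulated gene of the proximal tubule, took 14.45% of its FPKM, against 8.45% to 11.28% in the other chow pools and 7.12% to 9.73% in the EpSA pools. The EpSA ZT 9 pool held 100.6 FPKM of 4 adrenal genes, against at most 1.7 in any other pool. Summed levels of 8 immune cell markers were 420.5 to 926.4 FPKM in chow at ZT 1, 5, 9 and 13, against 177.6 to 231.6 in EpSA at those times. At ZT 17, 21 and 25 they were 175.1 to 212.3 in chow and 185.8 to 206.5 in EpSA. All 6 podocyte markers had estimates above 0 in EpSA (summed level 50.4 to 78.1 FPKM in chow, 62.3 or more in EpSA), and the 6 red blood cell markers had a lower sum in EpSA at 7 of 7 times (381.8 to 707.6 in chow, 314.0 to 437.1 in EpSA). The 6 markers of the thick ascending limb and distal tubule, segments also rich in mitochondria, had a higher sum in EpSA at 1 of 7 times (1085.0 to 1450.5 FPKM in chow, 824.6 to 1175.7 in EpSA). Umod made up much of that sum, with means of 826.87 FPKM in chow and 633.7 in EpSA. By gene, 4 of the 6 had log2 estimates below 0 and 2 above, Slc12a3 (0.23) and Calb1 (0.21). The part of these markers in the differences below was not tested.

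Mitochondrial transcripts made up a large share of each pool's summed FPKM, and the share was higher on the EpSA diet at every time. In chow they took 23.85%, 24.96%, 25.36%, 25.77%, 28.12%, 22.15% and 26.66% of all FPKM from ZT 1 to ZT 25. In EpSA they took 27.14%, 28.98%, 31.21%, 31.79%, 29.11%, 32.66% and 28.63%. Only the chow ZT 17 pool lay above any EpSA pool. The gap between diets was 10.51 percentage points at ZT 21 and 0.99 at ZT 17. In whole kidney, more mitochondria, more transcript per mitochondrion and a different mix of cells cannot be told apart.

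**Figure D1:**
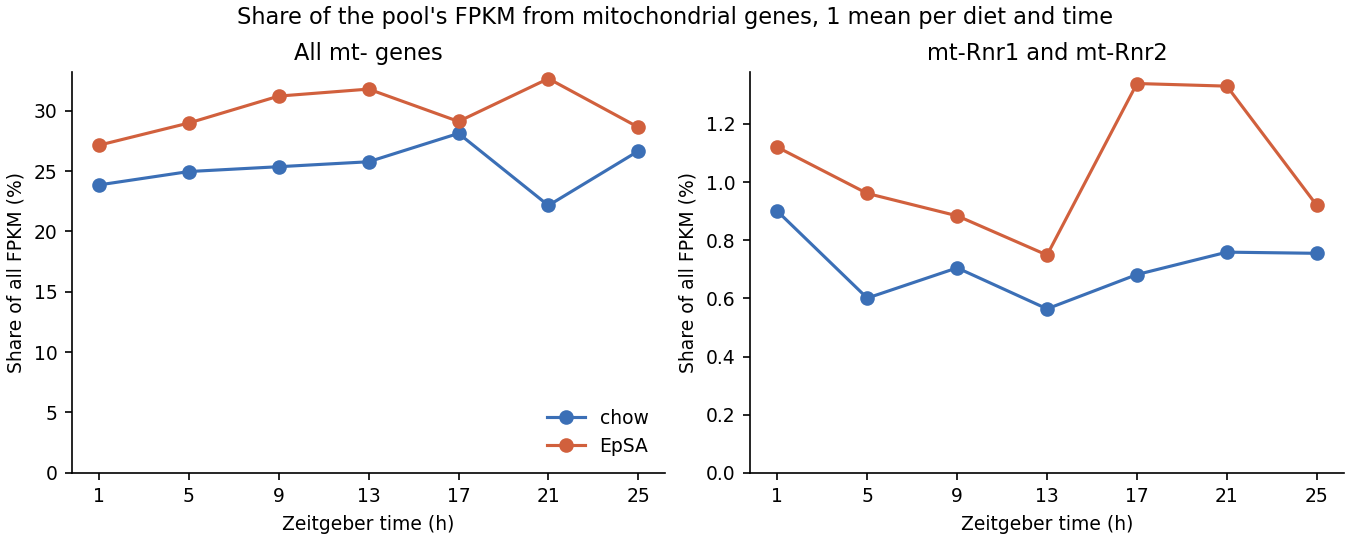
Share of each pool's FPKM (%) that came from all mitochondrial genes (left) and from both mitochondrial rRNAs (right), by zeitgeber time, with 1 point per diet and time. The EpSA share of all mitochondrial genes was above the chow share at all 7 times, with the widest gap at ZT 21 (32.66% against 22.15%).

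Of the 37 genes, 17 reached a mean of 1 FPKM and were tested: all 13 mRNAs, both rRNAs and 2 tRNAs. The tRNAs are 59 to 75 bases long, shorter than the 150-base reads, and 18 of the 22 were listed at 0 in all 14 pools. All 14 tRNAs on the plus strand were among these 18. The 4 with any value lie on the minus strand, the strand with few genes, and are printed because they are the whole of the tRNA signal. Sequences are those of the GENCODE annotation of GRCm38, 5′ to 3′, with the anticodon in capitals.
mt-Tp: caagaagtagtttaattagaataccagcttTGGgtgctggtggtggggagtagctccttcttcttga
mt-Tc: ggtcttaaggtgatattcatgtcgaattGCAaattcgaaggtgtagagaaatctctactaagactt
mt-Te: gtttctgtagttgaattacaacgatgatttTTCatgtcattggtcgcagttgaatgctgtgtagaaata
mt-Tn: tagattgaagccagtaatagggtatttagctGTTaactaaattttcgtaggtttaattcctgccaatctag

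mt-Tp, the proline tRNA (chrM:15356-15422, minus strand), was the only tRNA at an mRNA-like level, with a mean of 2039 FPKM. The nearest other minus-strand gene, mt-Te, lies 1216 bases away, and mt-Cytb of the plus strand lies between them. mt-Tc, the cysteine tRNA (chrM:5192-5257, minus strand), averaged 10.2 FPKM. The glutamate tRNA mt-Te (chrM:14071-14139, minus strand) was above 0 in 10 pools and reached at most 1.27 FPKM, and the asparagine tRNA mt-Tn (chrM:5089-5159, minus strand) was above 0 in 8 and reached 0.97. Whether the counting used strand was not given in the sources used here. Without it, reads of a minus-strand gene and of RNA copied from the other strand across the same bases cannot be told apart.

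Levels differed widely between the mRNAs, also among the 12 that lie on the plus strand (mt-Nd6 alone lies on the minus strand). Averaged over the 14 pools, mt-Co1, the core subunit of complex IV, had 25959 FPKM. mt-Cytb, the only mitochondrially encoded subunit of complex III, had 25306, and the order of these genes held in only 11 of 14 pools. Below them came 5 complex I subunits: mt-Nd1 at 19853, mt-Nd2 at 13324, mt-Nd4 at 9355, mt-Nd6 at 7782 and mt-Nd5 at 6076. Each of these neighbours kept its order in 14 of 14 pools, except mt-Nd4 over mt-Nd6 in 13.

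The other 6 mRNAs were far lower, with the highest of them, mt-Co2, 16.6-fold below mt-Nd5. mt-Co2 and mt-Co3, both of complex IV, averaged 366 and 180 FPKM. The complex V subunits mt-Atp6 and mt-Atp8 averaged 173 and 63.6, and the complex I subunits mt-Nd3 and mt-Nd4l 51.9 and 38.0. mt-Co3 was above mt-Atp6 in 10 of 14 pools, and mt-Atp8 above mt-Nd3 in 13. These 6 genes lie together on the genome, with tRNAs between them, from mt-Co1 to mt-Nd4.

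**Figure D2:**
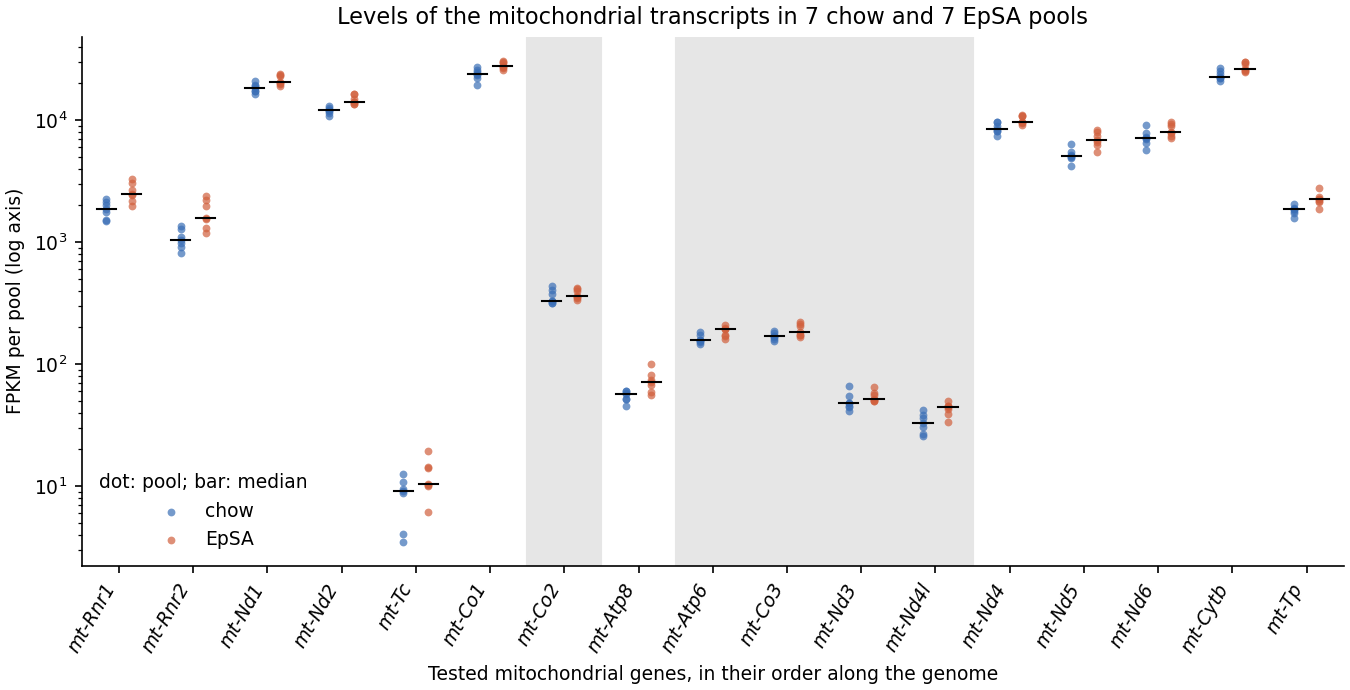
FPKM (log axis) of the 17 tested mitochondrial genes in the 7 chow (blue) and 7 EpSA (orange) pools, in genome order, with a bar at each diet's median. Shading marks the 5 mRNAs that lie, but for at most 3 bases, in a nuclear copy of at least 99% identity. The 6 mRNAs from mt-Co2 to mt-Nd4l lay below all other mRNAs in every pool.

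The same stretch has a near-identical copy in the nuclear genome. BLAST of the mitochondrial transcripts against other annotated transcripts listed 7 pseudogenes of at least 99% identity, all on the minus strand of chr1:24611535-24616197 (GRCm38), a span of 4663 bases. Matches were sought in the transcripts' own direction only. Any on a further chromosome were left out of this list but not of the coverage below. Copies covered 681 of 684 bases of mt-Co2, 678 of 681 of mt-Atp6, 783 of 784 of mt-Co3, 345 of 348 of mt-Nd3 and 294 of 297 of mt-Nd4l. They covered 63.6% of mt-Nd4 and 31.3% of mt-Co1. No copy of that identity was found for mt-Nd1, mt-Nd2, mt-Nd5, mt-Nd6, mt-Cytb or the rRNAs. For mt-Atp8, 43 of 204 bases lie in an annotated copy, and the 233 bases between the annotated copies of mt-Co2 and mt-Atp6 equal in number the stretch that separates those matches in mitochondrial DNA.

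The pairs below show how little separates gene from copy. Within the aligned stretch, 345 bases for mt-Nd3 and 483 of the 1545 bases of mt-Co1, each pair differs at a single base, in capitals. A read that lies wholly within that stretch and does not cross that base matches both. Positions are counted from 1 at the mitochondrial gene's 5′ end, with the mitochondrial base first: the change is T3C from mt-Nd3 (chrM:9459-9491, plus strand) to Gm28438 (chr1:24613087-24613119, minus strand). It is A1066T from mt-Co1 (chrM:6390-6423, plus strand) to Gm29216 (chr1:24616155-24616188, minus strand).
mt-Nd3: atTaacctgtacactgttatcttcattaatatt
Gm28438: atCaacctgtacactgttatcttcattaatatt
mt-Co1: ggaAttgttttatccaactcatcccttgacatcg
Gm29216: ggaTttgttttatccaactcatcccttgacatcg

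For these 5 mRNAs the copy's level was close to the gene's own. Gm10925 had 0.967 times the FPKM of mt-Atp6, Gm28438 0.867 times that of mt-Nd3 and Gm28437 0.806 times that of mt-Co3. Gm28661 had 0.656 times the level of mt-Co2 and Gm10222 0.653 times that of mt-Nd4l. For mt-Nd4 and mt-Co1, which are covered in part, the ratios were 0.0049 and 0.0064. How the authors treated reads with more than 1 match was not given in the sources used here, so the levels of these 5 mRNAs and their copies are uncertain, and the part of shared reads in the low values was not tested.

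**Figure D3:**
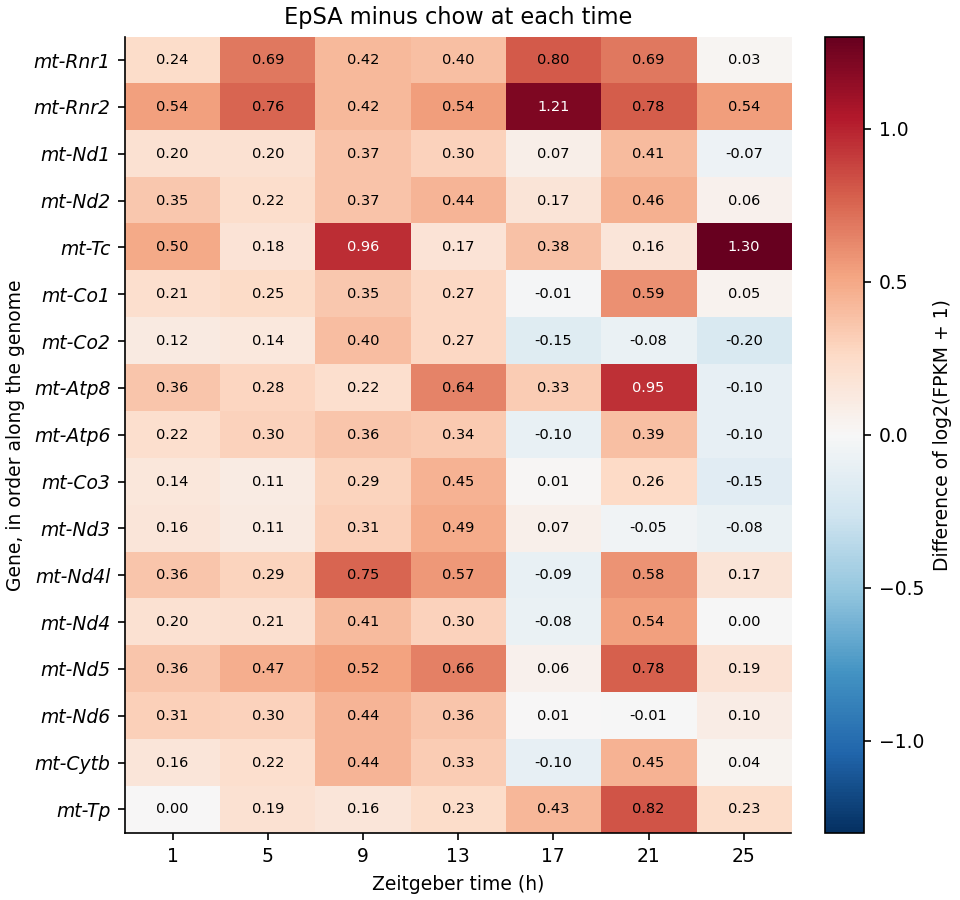
Difference of log2(FPKM + 1) between EpSA and chow at each zeitgeber time for the 17 tested mitochondrial genes, in genome order. All 17 were above 0 at ZT 1, 5, 9 and 13, whereas 11 (64.7%) were at ZT 17, 14 (82.4%) at ZT 21 and 10 (58.8%) at ZT 25. Of all tested genes, 37.9% to 43.4% were above 0 at ZT 1 to 13. The share was 57.6% at ZT 17, 59.6% at ZT 21 and 52.3% at ZT 25.

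Every tested mitochondrial transcript was higher on the EpSA diet when averaged over the day, but only 1 passed the test. Diets were compared within times by limma on log2(FPKM + 1) over all 13344 genes that averaged 1 FPKM or more, with Benjamini-Hochberg adjustment at 0.05. The error of each gene's difference below is its standard error (SE) from limma. It rests on the spread over the 7 times, moderated by that of other genes. mt-Rnr2 was the 1 member of 17 called higher, and 0.172% of all tested genes were called higher. None of the 17 was called lower, against 0.0749% of all genes. An unadjusted limma p under 0.05 was found for 15 members in the higher direction and 0 in the lower, against 8.56% and 10.6% of all genes. Estimates above 0 were found for 17 of 17 members and for 46.1% of all genes, and the median was 0.24 for the members and -0.01 for all genes. EpSA was higher at 7 of 7 times for 6 members and for 3.81% of all genes. The members come from the same few precursor RNAs and so do not count as 17 separate observations.

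The largest difference of the 17 was that of mt-Rnr2. This gene, the large-subunit rRNA (chrM:1094-2675, plus strand), had 1353, 906, 978, 815, 1033, 1278 and 1090 FPKM in chow from ZT 1 to ZT 25. In EpSA it had 1964, 1535, 1310, 1185, 2393, 2202 and 1583. EpSA was higher at all 7 times, by 0.68 ± 0.09 on the log2 scale (limma adjusted p = 0.047), although the EpSA ZT 9 and ZT 13 pools lay within the chow range.

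The mt-Rnr2 call is borderline. It was kept under 6 of 15 other settings, with estimates of 0.60 to 0.77 and adjusted p from 0.027 to 1. Leaving out any time but ZT 17 ended it, with adjusted p of 0.057 without ZT 1, 0.13 without ZT 5, 0.063 without ZT 9, 0.12 without ZT 13, 0.086 without ZT 21 and 0.089 without ZT 25, and limma without its trend and robust options gave 0.056.

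mt-Rnr1, the small-subunit rRNA (chrM:70-1024, plus strand), had a lowest, median and highest level of 1500, 1860 and 2267 FPKM in chow and 1991, 2495 and 3267 in EpSA. It was higher in EpSA at all 7 times, by 0.47 ± 0.09 on the log2 scale (limma adjusted p = 0.068), and the groups overlapped. The next mRNA on the same strand, mt-Nd1, was 8.9-fold above mt-Rnr1, while mt-Co2 further along was below both rRNAs in 14 of 14 pools. Whether rRNA was depleted or poly(A) RNA selected before sequencing was not given in the sources used here.

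Among the 7 complex I mRNAs, mt-Nd2 and mt-Nd5 were higher in EpSA at all 7 times and none passed the test. mt-Nd2 had a lowest, median and highest level of 10720, 12036 and 13028 FPKM in chow and 13551, 14100 and 16350 in EpSA. It was the only member whose pools did not overlap between diets, with all EpSA pools above all chow pools. Separation in that direction was true of 0.427% of all tested genes. The mt-Nd2 difference was 0.29 ± 0.07 on the log2 scale (limma adjusted p = 0.084). mt-Nd5, a proton-pumping subunit encoded near the end of the plus-strand precursor, had 4232, 5068 and 6395 FPKM in chow and 5440, 6887 and 8297 in EpSA, with overlap. Its difference was 0.43 ± 0.09 on the log2 scale (limma adjusted p = 0.073).

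The other complex I mRNAs differed less or less steadily. mt-Nd4l had 25.7, 33.0 and 41.7 FPKM in chow (lowest, median, highest) and 33.3, 44.7 and 49.8 in EpSA, a log2 difference of 0.38 ± 0.09 (limma adjusted p = 0.096). The log2 differences of mt-Nd1, mt-Nd4 and mt-Nd6, the last being the only mRNA on the minus strand, were 0.21, 0.22 and 0.21, and that of mt-Nd3 was 0.14. All 4 groups of pools overlapped, with limma adjusted p of 0.17 to 0.29.

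In complexes III, IV and V the log2 differences ran from 0.07 for mt-Co2 to 0.38 for mt-Atp8, and none passed the test. mt-Cytb had a lowest, median and highest level of 20934, 22402 and 26710 FPKM in chow and 24843, 26082 and 30126 in EpSA (log2 difference 0.22 ± 0.08, limma adjusted p = 0.20). mt-Co1 had 19342, 23932 and 27425 in chow and 25520, 27693 and 30601 in EpSA (0.24 ± 0.08, limma adjusted p = 0.16). For both genes the chow ZT 17 and ZT 25 pools reached into the EpSA range and the chow ZT 21 pool was the lowest of all 14.

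mt-Co2 had 318, 330 and 433 FPKM in chow and 338, 364 and 420 in EpSA, a log2 difference of 0.07 ± 0.08 (limma adjusted p = 0.66). Its highest pool was chow ZT 21, as for mt-Nd3, and it was lower in EpSA at ZT 17, 21 and 25. The log2 difference was 0.16 for mt-Co3, 0.20 for mt-Atp6 and 0.38 ± 0.11 for mt-Atp8, with limma adjusted p of 0.26, 0.20 and 0.12. The 5 mRNAs with near-complete nuclear copies had a median log2 difference of 0.16 and the 7 high mRNAs one of 0.22. The 7 copies themselves had log2 differences of 0.05 to 0.37, none of them called.

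Both tested tRNAs were higher in EpSA at all 7 times. mt-Tp had a lowest, median and highest level of 1570, 1867 and 2034 FPKM in chow and 1870, 2252 and 2773 in EpSA, a log2 difference of 0.30 ± 0.09 (limma adjusted p = 0.14). At ZT 1 its difference was 0.00. mt-Tc had 3.5, 9.1 and 12.5 FPKM in chow and 6.1, 10.4 and 19.5 in EpSA, a log2 difference of 0.52 ± 0.14 (limma adjusted p = 0.12), and its pools overlapped.

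The difference between diets was not even over the day. At ZT 1, 5, 9 and 13 all 17 members were higher in EpSA, with medians of 0.22, 0.22, 0.40 and 0.36 on the log2 scale, whereas the medians of all genes lay between -0.05 and -0.03. Of all tested genes, 37.9% to 43.4% were higher in EpSA at those times. These are also the times at which the immune markers were higher in chow. At ZT 17 the 13 mRNAs had a median of 0.01 and at ZT 25 of 0.00. The rRNAs went another way at ZT 17, with 0.80 for mt-Rnr1 and 1.21 for mt-Rnr2.

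The median difference of the mRNAs was widest at ZT 21. There it was 0.45 on the log2 scale, and the immune markers summed to 190.4 FPKM in chow and 201.3 in EpSA. Other cell markers were not even at that time: the median log2 difference was 0.51 for podocyte, 0.41 for endothelial and -0.69 for red blood cell markers, and their part in the gap was not tested. The EpSA ZT 21 pool was the highest of all 14 for 7 of the 17 members, and the chow ZT 21 pool was the lowest for 4 and the highest for 2. Without ZT 21 the median of the 17 daily differences was 0.21, and without ZT 9, the time of the adrenal signal, it was 0.23. Within a diet, the ZT 25 pool came from other mice at the clock hour of ZT 1, and its median ratio to ZT 1 over the 17 members was 1.22 in chow and 1.03 in EpSA.

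The nuclear genes for subunits of the same complexes showed no called difference. Of 72 such genes tested, 64 had estimates below 0 in EpSA and 8 above, and the median log2 difference was -0.09. An unadjusted limma p under 0.05 for lower was found for 7 of them, or 9.72%, near the 10.6% of all tested genes, and for higher for 0. The lean below 0 rested largely on ZT 21: without that time 48 lay below 0 and 24 above, with a median of -0.02, where all 13 mitochondrial mRNAs stayed above 0 with a median of 0.18. Over all times, 35 of 36 nuclear complex I genes lay below 0, among them Ndufv1, which carries the flavin site of the complex (-0.14 ± 0.05, limma adjusted p = 0.19). Cox8a of complex IV had -0.18 ± 0.06 (limma adjusted p = 0.17) and Atp5d of complex V -0.26 ± 0.10 (limma adjusted p = 0.22).

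At ZT 21 the nuclear and mitochondrial genes lay furthest apart, with a median log2 difference of -0.54 for the 72 nuclear genes and 6 of them above 0. The nuclear genes summed to 15882 FPKM in the chow ZT 21 pool, against 11231 to 12838 in the other chow pools and 10725 in EpSA at ZT 21. The chow pool was thus the one that stood apart for the nuclear genes, as it was for Kap. The nuclear genes also leaned below 0 at ZT 25, with a median of -0.175 and 3 of 72 above 0. At ZT 5 the nuclear median was -0.07, with 14 above 0, and at ZT 1 and ZT 13 it was -0.02, with 31 above 0 at each. At ZT 9 the nuclear median was 0.13, with 62 of 72 above 0, and at ZT 17 it was 0.03, with 47 above 0. The share of all tested genes above 0 was 43.2%, 40.4%, 43.4%, 37.9%, 57.6%, 59.6% and 52.3% from ZT 1 to ZT 25.

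**Figure D4:**
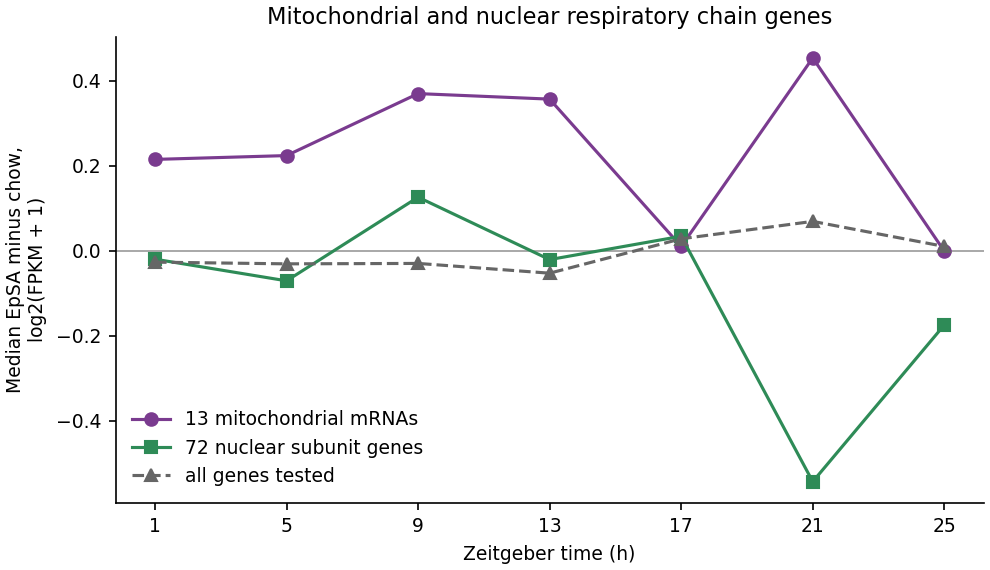
Median difference of log2(FPKM + 1) between EpSA and chow at each zeitgeber time for the 13 mitochondrial mRNAs, the 72 nuclear genes of oxidative phosphorylation subunits and all tested genes. At ZT 21 the mitochondrial median was 0.45 and the nuclear median -0.54.

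Genes that copy, process and translate mitochondrial RNA showed no called difference. Of 19 genes of mitochondrial transcription and DNA maintenance, 10 lay above 0 and 9 below, with a median of 0.00. Mterf3, which binds mitochondrial DNA and limits transcription, had 0.14 ± 0.04 and was higher in EpSA at 7 of 7 times (limma adjusted p = 0.15). Tk2, a kinase that salvages nucleosides for mitochondrial DNA, had -0.16 ± 0.06 and was lower at 5 of 7 times (limma adjusted p = 0.21). Of 33 genes of RNA processing and decay, 14 lay above 0 and 19 below, among the latter Ddx28, a helicase of ribosome assembly that was lower at 7 of 7 times (-0.10 ± 0.04, limma adjusted p = 0.20). Those above 0 included Trmt10c, a subunit of the enzyme that cuts tRNA 5′ ends (0.11 ± 0.04, limma adjusted p = 0.21), and Fastkd1, a mitochondrial RNA-binding protein (0.12 ± 0.04, limma adjusted p = 0.19).

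Of 28 mitochondrial translation factors, 11 lay above 0 and 17 below, with an unadjusted p under 0.05 for 1 in the higher direction and 4 in the lower. Vars2, the mitochondrial valine tRNA synthetase, was lower at 7 of 7 times (-0.11 ± 0.04, limma adjusted p = 0.17). Mtif2, an initiation factor of mitochondrial ribosomes, had 0.12 ± 0.04 and was higher at 7 of 7 times (limma adjusted p = 0.14). Of 20 regulators of mitochondrial biogenesis and markers of mitochondrial mass, 7 lay above 0 and 13 below, among them Vdac1, the outer membrane channel (-0.09 ± 0.05, limma adjusted p = 0.36). The median of each of these 4 lists lay between -0.03 and 0.00 on the log2 scale, where that of all genes was -0.01.

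Ratios of mitochondrial genes within a pool do not depend on a factor applied to the whole pool. The scaling of each mouse before the mean was taken can still enter them. For 4 such ratios the diets were compared by an exact two-sided sign-flip permutation test over the 7 times, adjusted over the 4. With 7 times the smallest p this test can give is 0.016. The error of each ratio's difference is its plain SE over the 7 times, not a moderated one. On the log2 scale the mt-Rnr2 to mt-Rnr1 ratio ranged from -0.95 to -0.67 in chow and from -0.93 to -0.36 in EpSA, so the groups overlapped. It was higher in EpSA by 0.22 ± 0.07 and at 6 of 7 times (exact permutation p = 0.031, adjusted p = 0.042).

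mt-Nd6 and mt-Nd5 lie tail to tail on opposite strands, and their ratio sets the minus-strand mRNA against its plus-strand neighbour. Since it is not known whether the counting used strand, mt-Nd6 values may also hold plus-strand RNA across the same bases. The log2 ratio of mt-Nd6 to mt-Nd5 was 0.44, 0.40, 0.48, 0.52, 0.29, 0.90 and 0.34 in chow from ZT 1 to ZT 25. In EpSA it was 0.38, 0.22, 0.40, 0.22, 0.24, 0.12 and 0.25. EpSA was lower at 7 of 7 times, with a mean difference of -0.22 ± 0.10 (exact permutation p = 0.016, adjusted p = 0.042). The chow ZT 21 pool carried much of it: without that time the difference was -0.13.

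The remaining pairs are overlapping reading frames of shared mRNAs. The log2 ratio of mt-Nd4l to mt-Nd4 was higher in EpSA by 0.16 ± 0.05 and at 6 of 7 times (exact permutation p = 0.031, adjusted p = 0.042). mt-Nd4 was 246.0-fold above mt-Nd4l although both are carried by 1 mRNA, and both have copies on chromosome 1. For mt-Atp8 to mt-Atp6 the log2 ratio differed by 0.18 ± 0.10 with EpSA higher at 4 of 7 times (exact permutation p = 0.19, adjusted p = 0.19). Each of the 3 calls was lost when any single time was left out, with adjusted p of 0.0625 to 0.0833. With 6 times the smallest p this permutation test can give, before adjustment, is 0.031. The mt-Rnr2 to mt-Rnr1 and mt-Nd4l to mt-Nd4 ratios each had 1 time of opposite sign, -0.002 at ZT 9 and -0.012 at ZT 17. The mt-Nd6 to mt-Nd5 ratio had none, and its adjusted p depends on the p of the other ratios. The lost calls thus rest on the few times, on these small opposite values and on the adjustment.

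**Figure D5:**
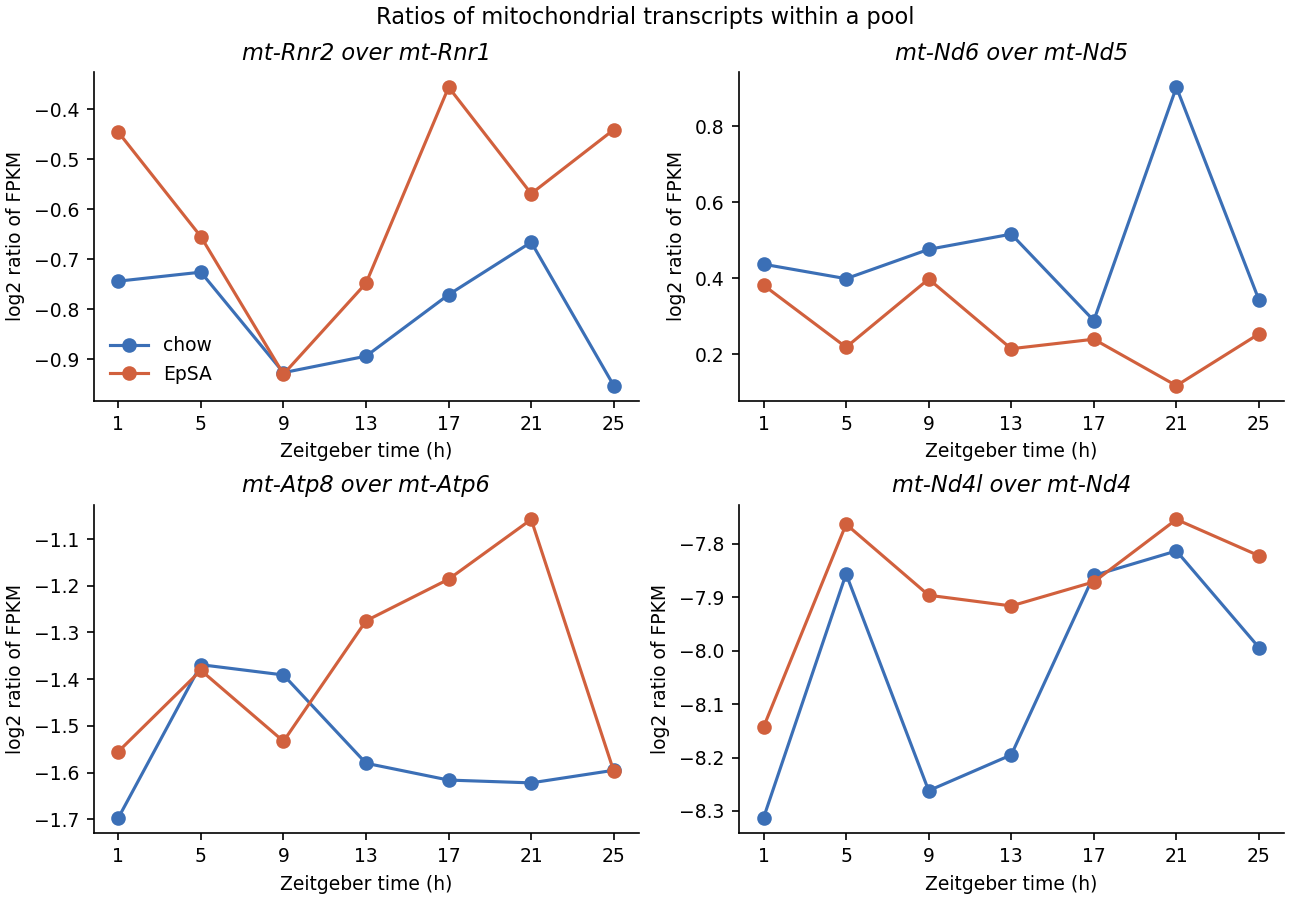
The log2 ratio of FPKM for 4 pairs of mitochondrial genes by zeitgeber time in chow (blue) and EpSA (orange), with 1 point per pool and a separate scale in each panel. The mt-Nd6 to mt-Nd5 ratio was lower in EpSA at 7 of 7 times and highest, at 0.90, in chow at ZT 21.

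No 24 h rhythm of a mitochondrial transcript passed the test in either diet. A 24 h cosine fitted by limma called 0 of 17 members in chow and 0 in EpSA, where 0.0974% and 0.045% of all tested genes were called. An unadjusted p under 0.05 was found for 1 of 17 members in each diet, against 10.2% of all genes in chow and 8.63% in EpSA. In both it was mt-Rnr2, with an amplitude of 0.28 ± 0.08 in chow (unadjusted p = 0.030, limma adjusted p = 0.44) and 0.44 ± 0.10 in EpSA (unadjusted p = 0.018, limma adjusted p = 0.54) on the log2 scale. The error given with these amplitudes is that of the cosine coefficient alone, while the amplitude combines a cosine and a sine coefficient. The median amplitude of the members was 0.13 in chow and 0.12 in EpSA, and that of all genes 0.09 in both. Without ZT 21 an unadjusted limma p under 0.05 was found in EpSA for 5 of 17 members and 852 of 13353 genes. No member was called there.

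The rhythm itself did not differ detectably between diets for any member. The limma interaction called 0 of 17 members and 0% of all genes, with an unadjusted p under 0.05 for 0 members and 4.38% of all genes. Without ZT 21 it gave an unadjusted p under 0.05 for 3 of 17 members and 344 of 13353 genes, and called 0. As for rhythm in the authors' deposited table, the lowest meta2d p of a member was 0.11 for mt-Tp in chow and 0.24 for mt-Rnr2 in EpSA, whereas 11.8% and 9.82% of all tested genes had a p under 0.05 there. Every member had a q of 1 in the authors' deposited table.

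Within a diet the mRNAs varied together over the pools and apart from the rRNAs. Over the 7 EpSA pools the 78 pairs of mRNAs had a median Pearson r of 0.85, from 0.51 to 1.0, and over the 7 chow pools one of 0.59, from -0.55 to 0.97. The rRNAs followed each other, with r of 0.87 in EpSA and 0.90 in chow. Pairs of an mRNA and an rRNA had a median r of -0.19 in EpSA and -0.18 in chow. These values are descriptive, since all genes of a pool share its scaling, its mice and its mix of cells.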

How the data were processed

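RNA sequencing of 42 kidneys gave read pairs of 150 bases each, per the labels' protocols. For the aligner, counting, multi-mapping reads, genome build and normalization nothing was given in the sources used here. Of the 2 deposited tables, 1 holds each diet, and the EpSA table was matched through the file named in its samples' descriptions. The authors' expression values are taken as FPKM from the values: not whole, with differing sums, and with a last decimal, in thousandths, of 0, 3 or 7, as in means of 3 values. Each column is therefore read as 1 mean per diet and time, and depth is unknown. The deposited tables also hold meta2d p-values and q-values, a phase in hours (used as a score) and a ratio of amplitude to baseline, per the file headers.

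The 13344 genes that averaged 1 FPKM or more entered limma 3.58.1 (trend and robust options, R 4.3.3) as log2(FPKM + 1). The diet fit, with time as a factor, left 6 residual degrees of freedom, the rhythm fit 4 and the difference of rhythm 8. Fold changes on this scale understate those of low genes. The error is the spread between times, not mice. P-values were adjusted by Benjamini-Hochberg. The members, lists and settings were chosen with earlier results of these data known. Named genes are every member and, per list, up to 4 with the lowest p of the diet difference. One listed processing gene of 34 had no match in the tables. Of the identifiers, 52073 had a symbol and 4618 had none. Nuclear copies were found with BLAST+ 2.17.0 (identity of at least 85%) in GENCODE transcripts of GRCm38, which may not be the authors' build. The models were tested on simulated data. Alternatives covered the pseudocount (0.1), the filter (none, or 5 FPKM), the scaling, the limma options and single times left out. The other steps used Python 3.11.15 with scipy 1.17.1, numpy 2.4.6, matplotlib 3.10.9 and pandas 2.3.3.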

Additional observations from a re-analysis of the deposited data

Results flagged for a closer look

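Of 44 sets of 7 pools, 1 for each of 22 measures and each diet, 2 held a pool far from its nearest neighbour relative to the whole range (Dixon's test at 95%), and chance gives about 1 in 20 such sets. The log2 ratio of mt-Nd6 to mt-Nd5 was 0.902 in the chow ZT 21 pool, with the nearest chow pool at 0.516. In that pool mt-Nd6 was at its highest chow level (9052 FPKM), mt-Nd5 was at 4843, and Kap took 14.45% of FPKM. The log2 ratio of mt-Nd4l to mt-Nd4 was -8.143 in the EpSA ZT 1 pool, with the nearest EpSA pool at -7.916.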

How the results depend on the processing

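The number of members called between diets was 1, mt-Rnr2. It was 0 with no filter on low values, 0 with all pools scaled to the same total and 0 with limma's plain options, a setting chosen after seeing the data. It was 2, with mt-Rnr1 added, when pools were scaled to the same total over genes other than the mitochondrial ones and Kap, also chosen after seeing the data. Leaving out single times gave 0 to 1. A pseudocount of 0.1, a filter at 5 FPKM, the same median and the same total over all but the mitochondrial genes each gave 1. The cause was not tested. All 255 estimates of the 17 members under the 15 alternatives were above 0. Rhythm calls among members stayed at 0 throughout.

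Without single times the mt-Rnr2 to mt-Rnr1 ratio differed by 0.171 to 0.257, the mt-Nd6 to mt-Nd5 ratio by -0.248 to -0.125 and the mt-Nd4l to mt-Nd4 ratio by 0.127 to 0.19. All 3 lost their calls each time, with adjusted p of 0.0625 to 0.0833. With 6 times the smallest p of the permutation test before adjustment is 0.031, which can pass or fail after adjustment over the 4 ratios. Times of opposite sign, -0.002 at ZT 9 for mt-Rnr2 to mt-Rnr1 and -0.012 at ZT 17 for mt-Nd4l to mt-Nd4, also entered these losses.

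Calls over all genes moved too: 23 higher and 10 lower, against 0 and 0 with no filter, 30 and 25 at 5 FPKM, 1 and 1 with the same total, 5 and 2 with the total over all but mitochondrial genes, 69 and 13 with Kap left out too, 14 and 3 with the same median and 1 and 2 with plain options. Single times left out gave 0 to 6 higher and 0 to 5 lower, with 0 and 0 without ZT 5 or ZT 25. No paired analysis was possible because the columns are means over mice and carry no replicate number, so diets were matched by time alone.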
